A study of Mus musculus with 8 samples.

Results

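The genes described here are 36 genes of the hypoxia response and of glycolysis, followed over 8 arrays of mononuclear phagocytes sorted from mice, a class of immune cells that includes monocytes and macrophages and takes up particles and debris. They were chosen by symbol for their known roles, with no threshold on a measured value, but with earlier results of these data known. A gene was measured when at least 1 probe set carried its symbol alone, which held for 33 of the 36 among 19938 genes measured in all. Gpi1, Gapdh and Eno1 had no such probe set and are not analysed here. Of the 33, 30 were at or above the array's median over all probe sets in at least 2 arrays and could be tested, among 10673 such genes. P4ha2, Adm and Ak4 lay below the median of every array, with values of 4.07 to 4.27, 4.59 to 5.81 and 4.22 to 5.76.

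All mice were C57BL/6 and Cx3cr1gfp/+, which means that a green fluorescent protein replaced 1 copy of the fractalkine receptor gene and reported CX3CR1. From steady state, 3 arrays labelled female held resident CX3CR1hi macrophages of the colon, monocyte-reconstituted ones with the same CX3CR1 level, and Ly6Chi monocytes of the spleen, and 1 labelled male held colonic CX3CR1hi F4/80hi cells. At day 4 of colitis induced with dextran sodium sulphate, a polymer that injures the colonic epithelium, 4 arrays labelled male held the F4/80hi cells with high CX3CR1 again, the Ly6Clo and the Ly6Chi subset of colonic CX3CR1int cells, and splenic monocytes sorted as Ly6Chi. Each group had 1 array, so 4 arrays came from CX3CR1hi cells, 2 from CX3CR1int cells and 2 from splenic monocytes. The labels give neither the ages nor the number of mice behind each array, nor how the reconstituted macrophages were obtained. The mice carry only 1 working copy of Cx3cr1 in every group, controls included.

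In cells with enough oxygen, prolyl hydroxylases mark the alpha subunits of the hypoxia-inducible factors (HIF) for destruction through the von Hippel-Lindau protein. When oxygen falls the subunits accumulate, enter the nucleus and bind short DNA elements with the core ACGTG or GCGTG, next to genes of glucose uptake, glycolysis, lactate export and blood vessel growth. The colonic mucosa is a tissue of low oxygen, and myeloid cells that become activated also switch towards glycolysis and raise HIF without any lack of oxygen. The arrays measured RNA only, neither HIF protein nor oxygen nor metabolic flux.

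The deposited values were log2 values from 3.37 to 14.31 with array medians of 5.77 to 5.87, and a value of 1 probe set cannot be set against that of another. Macrophage markers fitted the labels of the CX3CR1hi cells, the 12 genes having medians of 12.13 to 12.32 in each array, and monocyte markers those of the splenic cells, with medians of 11.35 to 11.61 over 7 genes. The CX3CR1int arrays had macrophage medians of 9.28 and 10.63, below those of CX3CR1hi cells, against 10.16 to 10.58 in the spleen. They were not alike in monocyte markers. The Ly6Chi array had a median of 11.28, close to the splenic cells, and the Ly6Clo array one of 5.64, close to the 4.77 to 5.46 of CX3CR1hi cells. Compared with the colitis spleen, Ly6Chi cells had 4 of 12 macrophage markers at least 2-fold higher and 1 lower. Of 7 monocyte markers, 0 were higher and 2 lower by that measure. Neither array thus matched either population in full. Epithelial RNA was present in the colonic arrays: all 16 epithelial markers were at or above the array median in every CX3CR1hi array, with medians of 10.26 to 11.21, and 15 in both CX3CR1int arrays, with medians of 9.40 to 9.66, against 5.04 to 5.48 in the spleen. Immediate early genes, which cell isolation can induce, had medians of 10.92 to 11.19 in CX3CR1hi, 10.22 to 10.40 in CX3CR1int and 8.49 to 9.31 in splenic arrays. RNA of the pancreatic enzyme gene Cpa1 stood at 9.59 in the resident, 9.23 in the colitis F4/80hi and 9.59 in the colitis Ly6Chi array and between 4.85 and 5.95 elsewhere. The steady-state splenic array, labelled female, carried the X-inactivation RNA Xist (10.04) together with the Y-linked Eif2s3y (10.28), so its sex label did not match its RNA. Every difference between tissues below moves with epithelial and immediate early RNA, whose part in it was not tested. In bulk samples fewer cells of a type and less RNA per cell cannot be told apart.

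Because these genes are grouped by their link to HIF, the promoter sequences of 7 of them are shown, 6 with their highest value in the colitis Ly6Chi array and Ldha, which was highest in the Ly6Clo array. Each line is a stretch of 60 bases within 250 bases upstream of a transcription start, 5′ to 3′ on the gene's strand, from RefSeq on GRCm38.p6. Capitals mark ACGTG or GCGTG, or the same cores on the opposite strand, which read CACGT and CACGC. Where CACGTG or CACGCGTG is in capitals, a core lies on each strand and the pair overlaps.
Slc2a1, chr4:119108657-119108716, plus strand: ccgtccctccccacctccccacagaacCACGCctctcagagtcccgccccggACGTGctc
Slc16a3, chr11:120949007-120949066, plus strand: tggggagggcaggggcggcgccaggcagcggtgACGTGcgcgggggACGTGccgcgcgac
Ldha, chr7:46845743-46845802, plus strand: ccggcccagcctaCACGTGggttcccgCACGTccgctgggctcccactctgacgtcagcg
Pgk1, chrX:106186923-106186982, plus strand: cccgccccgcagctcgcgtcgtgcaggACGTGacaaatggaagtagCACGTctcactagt
Bnip3, chr7:138909591-138909650, minus strand: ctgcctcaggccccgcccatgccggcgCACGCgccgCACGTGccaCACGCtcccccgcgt
Ankrd37, chr8:45999973-46000032, minus strand: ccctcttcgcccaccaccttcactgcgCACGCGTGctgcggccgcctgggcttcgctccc
Ddit4, chr10:59951925-59951984, minus strand: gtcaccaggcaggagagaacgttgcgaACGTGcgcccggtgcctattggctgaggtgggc

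A promoter window of 300 bases, from 250 before to 50 after a start, was given for 31 of the 33 measured genes, the others being Slc2a3 and Ndrg1. At least 1 core lay in a window of 30 of these 31 genes (96.8%), against 46.7% of 27025 genes with a window and 67.2% of 8584 such genes that passed the brightness filter. Tpi1 was the gene without one. Of the members with several windows, Aldoa, Hk1, Kdm3a, Mxi1, Pdk1, Pkm and Vegfa also had a window without a core. For Vegfa this was the window of the more upstream start. A gene counted when any of its windows held a core, and the members had more windows per gene. They had 47 windows for 31 genes, against 10913 for 8584 past the filter and 32851 for 27025 in all. Counted by window, at least 1 core was in 80.9% of the members' windows, 61.3% of windows of genes past the filter and 43.8% of all windows. The core ACGTG was in 57.4%, 25.6% and 19.6% in the same order. GCGTG was in 55.3%, 49.7% and 32.4%. In the 41 windows of members past the filter ACGTG was in 61.0% and GCGTG in 48.8%. The share of GCGTG was thus no higher than the 49.7% of genes past the filter. The windows were rich in G and C, with a median of 65.0% for the members against 60.7% for genes past the filter, and the genes had been named for their known link to HIF or glycolysis. A matching core is a description of the letters and no measurement of binding.

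Over the 8 arrays the genes did not rise or fall as 1 block. The array with the highest value was most often that of colitis Ly6Chi cells, one of the 2 CX3CR1int subsets of the inflamed colon: 17 of 30 members (56.7%) peaked there, against 8.30% of all 10673 genes tested. The 17 were Hif1a and Egln3, the transporter genes Slc2a1 and Slc16a3, the enzyme genes Pfkl, Pfkfb3, Tpi1, Pgk1, Pgam1 and Pkm, and, of the 9 other HIF targets, Vegfa, Bnip3, P4ha1, Ankrd37, Ddit4, Kdm3a and Mxi1. Ankrd37 passed the brightness filter through the 2 CX3CR1int arrays alone, so its place in this count depends on the filter. Relative to each gene's own mean over the 8 arrays, the members' median was 0.55 in this array on the log2 scale, and 28 of 30 lay above their mean, while the medians of the other 7 arrays ran from -0.18 to 0.00 and that of all genes in the Ly6Chi array was -0.05. With the arrays quantile normalized once more or centred on their medians 15 and 16 members peaked there, alternatives added after the data were seen. This is 1 array, so the pattern has no replicate. Markers of other cells also peaked in it, namely 3 of 4 plasma and B cell genes, 3 of 5 endothelial, 2 of 10 stromal, 1 of 4 neutrophil and 0 of 16 epithelial genes, besides Cpa1. The part of these in the result was not tested.

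**Figure D1:**
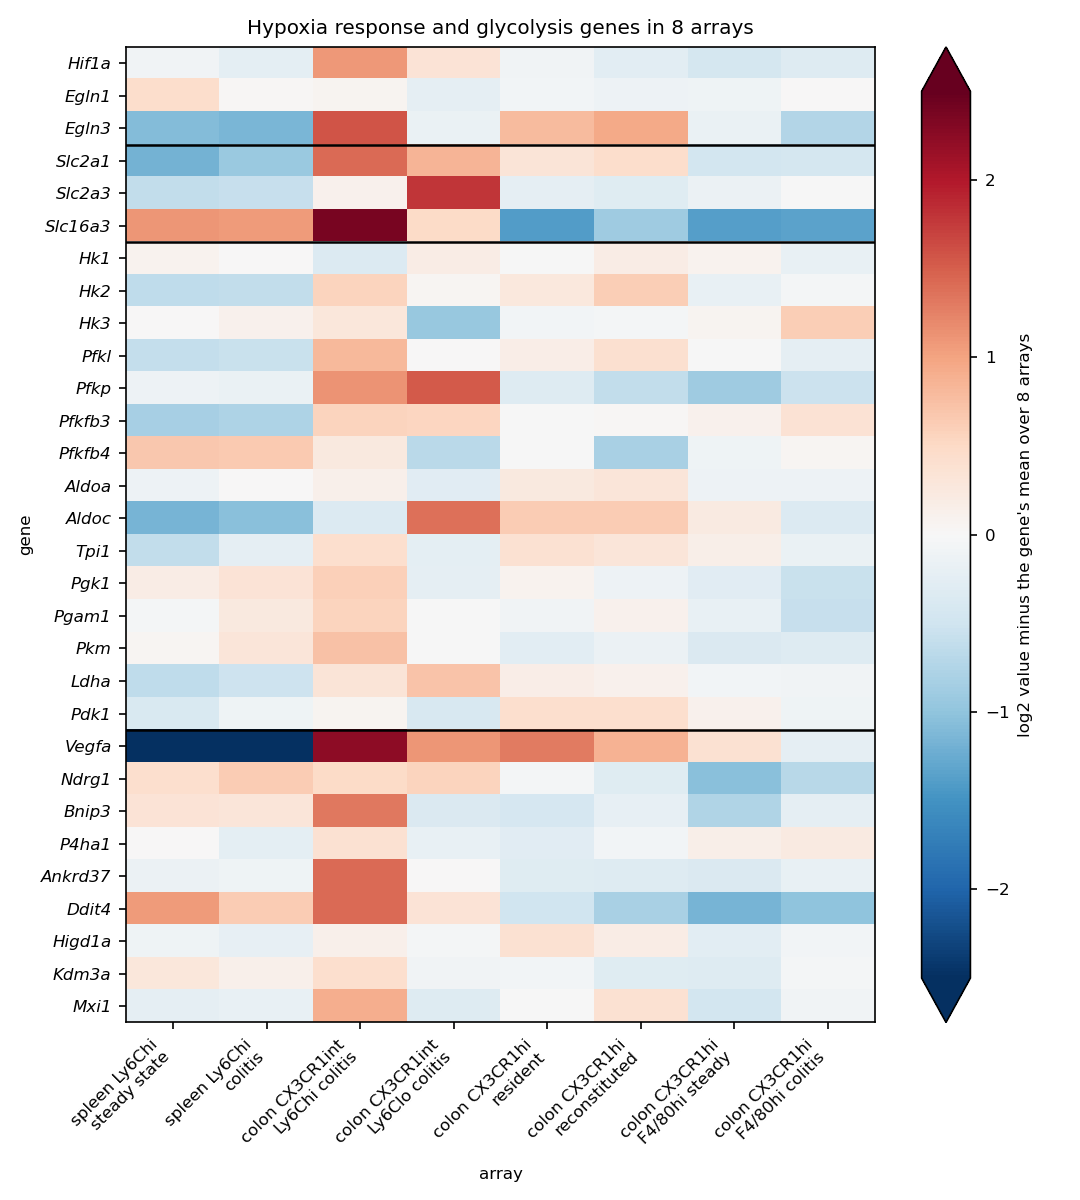
Heat map of the 30 members past the brightness filter (rows, grouped by role) in the 8 arrays (columns), coloured by the log2 value minus the gene's mean over the 8 arrays, with values beyond the scale drawn in its end colours. The colitis Ly6Chi column is above the mean for 28 of 30 genes, and Vegfa is far below its mean in both splenic columns.

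Of the oxygen-sensing genes, Hif1a, which encodes the HIF-1 alpha subunit, stood at 11.18, 11.01, 10.83 and 10.95 in the resident, reconstituted, steady-state F4/80hi and colitis F4/80hi arrays, at 11.62 in Ly6Clo, 12.35 in Ly6Chi, and 11.19 and 11.03 in the steady-state and colitis spleen. Both CX3CR1int arrays were above all others, and the CX3CR1hi and splenic values overlapped. By limma with Benjamini-Hochberg adjustment Hif1a was higher in CX3CR1int than in CX3CR1hi cells by 0.99 (SE 0.21, adjusted p = 0.0115) and than in splenic monocytes by 0.87 (SE 0.24, adjusted p = 0.0345), the latter lost in 8 of 17 alternative settings. Without the Ly6Chi array these differences were 0.63 and 0.51. The settings were not all distinct. For CX3CR1int against CX3CR1hi cells, leaving out either splenic array gave the same fit as the populations compared alone. The same held for leaving out either CX3CR1int array when CX3CR1hi cells were set against monocytes. Counts of settings in these contrasts therefore hold a single result more than once. CX3CR1hi cells and monocytes differed by -0.12 (SE 0.21, adjusted p = 0.645). Egln3, a prolyl hydroxylase gene that is itself a HIF target, ranged from 5.43 in the colitis spleen to 8.15 in Ly6Chi cells. All colonic arrays were above both splenic arrays for it, but neither the difference of CX3CR1hi (1.32, SE 0.59, adjusted p = 0.0931) nor that of CX3CR1int cells (1.81, SE 0.68, adjusted p = 0.0886) passed the threshold in the limma fit. Egln1, the main oxygen sensor among the hydroxylases, varied by 0.66 over all arrays and was highest in the steady-state spleen (9.12).

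Among the transporters, Slc2a1, the glucose carrier GLUT1, stood at 10.53, 10.65, 9.76 and 9.77 in the 4 CX3CR1hi arrays in the order above, at 11.06 in Ly6Clo and 11.63 in Ly6Chi cells, and at 9.03 and 9.29 in the spleen. The 3 populations did not overlap. Slc2a1 was 1.01 higher in CX3CR1hi cells than in monocytes (SE 0.31, adjusted p = 0.0266) and 1.17 higher again in CX3CR1int than in CX3CR1hi cells (SE 0.31, adjusted p = 0.0261). The first of these was lost without the resident, the reconstituted or either splenic array, with an adjusted p of up to 0.16, and the second without the steady-state F4/80hi or the Ly6Chi array. The difference of 2.18 between CX3CR1int cells and monocytes (SE 0.36, adjusted p = 0.00542, limma) held in all 17 settings.

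Slc16a3, the lactate exporter MCT4, had a different order. It stood at 6.67, 7.19, 6.70 and 6.73 in the CX3CR1hi arrays, at 8.56 in Ly6Clo, 10.44 in Ly6Chi, and 9.18 and 9.15 in the spleen, so every CX3CR1hi value was below every other. It was 2.34 lower on the log2 scale in CX3CR1hi cells than in monocytes (a difference of -2.34, SE 0.45, a fold of 5.06, adjusted p = 0.00351) and 2.68 higher in CX3CR1int than in CX3CR1hi cells (SE 0.45, a fold of 6.40, adjusted p = 0.00512). Both limma calls held in all 17 settings, the second with a size of 1.74 without the Ly6Chi and 3.62 without the Ly6Clo array. The 2 CX3CR1int arrays lay on either side of the monocytes, with a mean difference of 0.34 (SE 0.52, adjusted p = 0.654). Slc2a3, the high-affinity glucose carrier GLUT3, was at 7.81 in Ly6Clo cells and between 5.41 and 6.12 in the other 7 arrays. Its difference of 1.54 between CX3CR1int cells and monocytes (adjusted p = 0.0422, limma) was lost in 10 of 16 settings. Its size differed between the CX3CR1int arrays, being 0.70 without Ly6Clo and 2.38 without Ly6Chi, and both splenic values lay below their array's median.

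**Figure D2:**
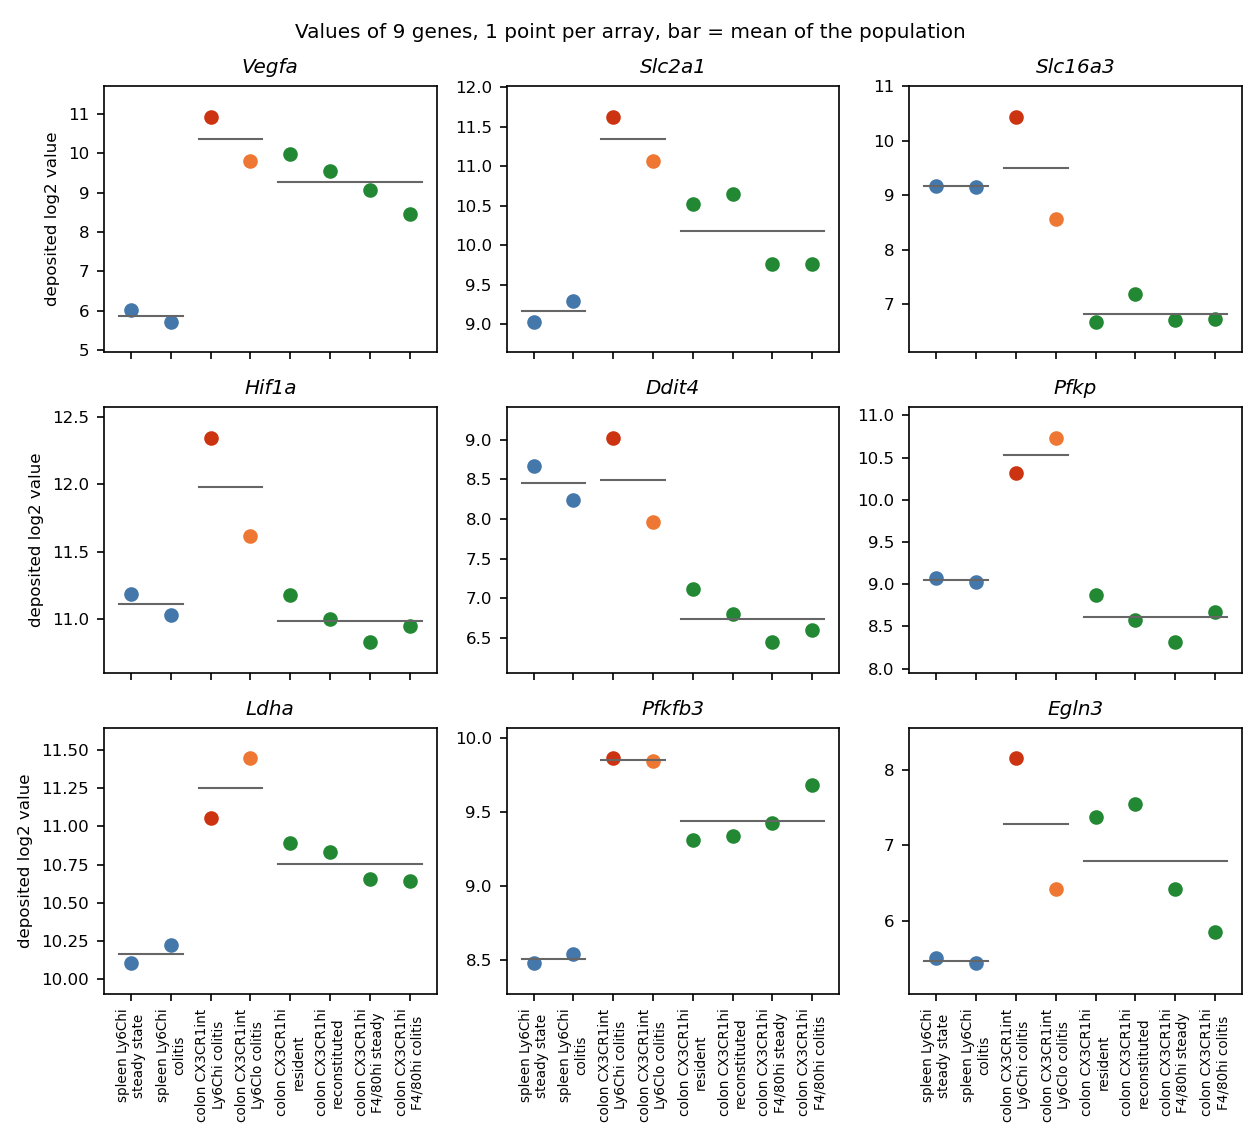
Deposited log2 values of 9 genes in 8 arrays (x axis), 1 point per array, with a bar at the mean of each population of 4, 2 and 2 arrays, the y axes differing between genes. Vegfa separates the colonic from the splenic arrays, Slc16a3 and Ddit4 are low in the 4 CX3CR1hi arrays, and Hif1a, Slc2a1 and Pfkp are high in both CX3CR1int arrays.

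The 15 measured glycolytic enzymes and regulators differed less. Hexokinases trap glucose in the cell as its phosphate. Hk1, the housekeeping form, stayed within 11.72 to 12.24 by the probe set used. Its other probe set had a mean of 8.62 over the arrays, against 12.06, and peaked in the resident rather than the reconstituted array. Hk2, the inducible form, stood at 9.30, 9.65, 8.85 and 8.98 in CX3CR1hi arrays, 9.09 in Ly6Clo, 9.58 in Ly6Chi and 8.39 and 8.42 in the spleen. All colonic values of Hk2 were above the splenic ones, by 0.79 for CX3CR1hi (SE 0.24, adjusted p = 0.0272) and 0.93 for CX3CR1int cells (SE 0.28, adjusted p = 0.0466), limma calls lost in 4 and 10 of 17 settings. Hk3, the form of myeloid cells, was lowest in Ly6Clo (7.17) and highest in colitis F4/80hi cells (8.73), with 8.05 to 8.41 elsewhere, and no population difference passed (adjusted p from 0.327 to 0.857, limma).

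A later step, the committed one of phosphofructokinase, held the largest enzyme difference. Pfkp, its platelet-type subunit, stood at 8.87, 8.58, 8.31 and 8.67 in CX3CR1hi arrays, at 10.74 in Ly6Clo, 10.31 in Ly6Chi, and 9.07 and 9.03 in the spleen. Both CX3CR1int values exceeded all others. The difference was 1.92 from CX3CR1hi cells (SE 0.18, a fold of 3.78, adjusted p = 0.000543) and 1.47 from monocytes (SE 0.21, adjusted p = 0.00337), and both limma calls held in all 17 settings. The liver-type subunit gene Pfkl ranged from 7.61 to 9.01, was highest in Ly6Chi cells and was called in 1 of 3 contrasts, CX3CR1int cells against monocytes (0.99, SE 0.29, adjusted p = 0.0418, limma), lost in 8 of 17 settings and 0.59 without the Ly6Chi array.

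Pfkfb3 and Pfkfb4 encode enzymes that make and degrade the sugar bisphosphate that activates phosphofructokinase. Pfkfb3, the more strongly activating, stood at 9.31, 9.34, 9.42 and 9.68 in CX3CR1hi arrays, at 9.84 and 9.86 in Ly6Clo and Ly6Chi cells, and at 8.48 and 8.54 in the spleen. The colonic arrays were all above the splenic, by 0.93 for CX3CR1hi (SE 0.13, adjusted p = 0.000948) and 1.34 for CX3CR1int cells (SE 0.15, adjusted p = 0.00136). The second limma call held in all 17 settings, and the first in all but a 2-fold minimum. Pfkfb3 was also called between the colonic populations (0.41, SE 0.13, adjusted p = 0.0498), a call lost in 12 of 17 settings. Pfkfb4 went the other way, at 9.41 and 9.40 in the spleen and between 7.93 and 8.99 in the colon, which was 0.88 lower in CX3CR1hi cells (-0.88, SE 0.31, adjusted p = 0.0448), lost in 10 of 17 settings.

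In the lower part of the pathway the aldolase gene Aldoc, whose main site is the brain, stood at 6.87, 6.88, 6.47 and 5.90 in CX3CR1hi arrays, 7.62 in Ly6Clo, 5.90 in Ly6Chi and 5.07 and 5.20 in the spleen. It was 1.39 higher in CX3CR1hi cells than in monocytes (SE 0.46, adjusted p = 0.0374, limma), lost in 6 of 16 settings, and both splenic values lay below their array's median. The common aldolase gene Aldoa (11.08 to 11.68) and the triose phosphate isomerase gene Tpi1 (9.31 to 10.35) passed in no contrast. Pgk1, phosphoglycerate kinase, Pgam1, phosphoglycerate mutase, and Pkm, pyruvate kinase of most tissues, had ranges of 1.14, 1.13 and 1.09 over the 8 arrays on the log2 scale. All 3 were highest in Ly6Chi cells and none passed, the nearest being Pkm between CX3CR1int and CX3CR1hi cells (0.64, SE 0.21, adjusted p = 0.0510). These 3 genes have related copies in the genome, and the other probe sets with their symbols had the same sign in every contrast. Those of Hk1 and Higd1a disagreed in sign in 2 and 1 contrasts, all with differences of at most 0.20.

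Ldha, the lactate dehydrogenase subunit that favours making lactate, stood at 10.89, 10.83, 10.65 and 10.64 in CX3CR1hi arrays, 11.44 in Ly6Clo, 11.05 in Ly6Chi, and 10.11 and 10.22 in the spleen. The 3 populations again did not overlap. Ldha was 0.59 higher in CX3CR1hi cells than in monocytes (SE 0.15, adjusted p = 0.0119), lost without either splenic array, and 1.08 higher in CX3CR1int cells than in monocytes (SE 0.17, adjusted p = 0.00469). The step between the colonic populations was 0.49 (SE 0.15, adjusted p = 0.0402, limma) and was lost in 12 of 17 settings, being 0.30 without the Ly6Clo array. Pdk1, a kinase that keeps pyruvate from entering the mitochondrial citrate cycle, stood at 7.75, 7.74, 7.44 and 7.22 in CX3CR1hi arrays, 6.92 in Ly6Clo, 7.39 in Ly6Chi, and 6.95 and 7.22 in the spleen. Its populations overlapped in all 3 contrasts and none passed (adjusted p from 0.105 to 0.851, limma).

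Among the other HIF targets, Vegfa, the growth factor of blood vessels, had the widest range of all members. It stood at 9.99, 9.56, 9.07 and 8.46 in CX3CR1hi arrays, 9.79 in Ly6Clo, 10.93 in Ly6Chi, and 6.01 and 5.72 in the spleen. Colonic and splenic arrays were far apart: the difference was 3.41 for CX3CR1hi (SE 0.45, a fold of 10.6, adjusted p = 0.000665) and 4.50 for CX3CR1int cells (SE 0.52, adjusted p = 0.00144), and both limma calls held in all 17 settings. The colitis spleen value lay below that array's median, so the size of the difference rests in part on a dim value. The colonic populations overlapped (1.09, SE 0.45, adjusted p = 0.104). Vegfa is also made by epithelium, whose markers were high in the same arrays, and the part of that RNA was not tested.

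Ddit4, which encodes an inhibitor of the growth kinase mTOR, stood at 7.11, 6.80, 6.45 and 6.60 in CX3CR1hi arrays, 7.96 in Ly6Clo, 9.03 in Ly6Chi, and 8.67 and 8.24 in the spleen. As with Slc16a3, all CX3CR1hi values were below all others. The difference from monocytes was -1.71 (SE 0.31, adjusted p = 0.00288), and CX3CR1int cells were 1.75 above CX3CR1hi cells (SE 0.31, adjusted p = 0.00684), both in all 17 settings of the limma fit. Ndrg1, a stress-induced gene, stood at 9.74, 9.48, 8.74 and 9.09 in CX3CR1hi arrays, 10.35 and 10.28 in Ly6Clo and Ly6Chi cells, and 10.20 and 10.43 in the spleen. Its CX3CR1hi values were again the lowest, by -1.05 from monocytes (SE 0.26, adjusted p = 0.0117), lost without the colitis spleen array (adjusted p up to 0.0883), and CX3CR1int cells were 1.05 above them (SE 0.26, adjusted p = 0.0218), lost without the Ly6Clo array (adjusted p up to 0.0714).

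The remaining 6 tested targets passed in no contrast. Bnip3, a gene of mitochondrial clearance, was at 9.35 in Ly6Chi cells and between 7.27 and 8.37 elsewhere. Ankrd37, an ankyrin repeat gene, was at 7.29 there and between 5.50 and 5.88 in the other 7 arrays. Mxi1, an antagonist of Myc, was at 8.97 there against 7.61 to 8.45. Without the Ly6Clo array, which left Ly6Chi cells as the only CX3CR1int array, Bnip3 (1.71), Ankrd37 (1.72) and Mxi1 (0.94) were higher than in CX3CR1hi cells. These sizes rest on 1 array. Ankrd37 reached the array median in the Ly6Chi and Ly6Clo arrays only, so it passed the filter through them. Its differences from the other arrays depend on dim values there. Kdm3a, a histone demethylase gene (8.91 to 9.65), and P4ha1, a subunit of the collagen prolyl hydroxylase (9.49 to 10.17), also peaked in Ly6Chi cells, by smaller margins. Without the Ly6Clo array Kdm3a was 0.61 above CX3CR1hi cells, again resting on 1 array. Higd1a, a mitochondrial membrane protein gene, peaked in resident macrophages (6.96).

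Counted over the 30 members, CX3CR1hi cells against monocytes had 6 higher and 4 lower by limma at an adjusted p at or under 0.05, or 33.3%, against 51.2% of all 10673 genes (22.2% higher and 29.0% lower). With the arrays quantile normalized once more, 8 were higher and 3 lower, among 5112 genes called. Their median difference was 0.10 against -0.12 for all genes. Every CX3CR1hi value was above every splenic value for 10 members and below for 11, against 31.5% and 42.8% of all genes. Without the resident array 3 members were higher and 4 lower, among 4894 genes called. The members' counts rose without Ly6Clo or Ly6Chi and fell without either splenic array, and the number of all genes called moved the same way.

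CX3CR1int against CX3CR1hi cells had 8 members higher and 0 lower by limma, 0 also at an unadjusted p under 0.05, against 29.9% of all genes called, 13.3% higher and 16.6% lower. The 8 were Slc16a3, Pfkp, Ddit4, Slc2a1, Ndrg1, Hif1a, Ldha and Pfkfb3, in order of size, and the members' median difference was 0.41 against 0.01 for all genes. Both CX3CR1int values were above all CX3CR1hi values for 11 members and below for 0, against 23.6% and 25.3%. The 11 include Ankrd37, which passed the filter through these CX3CR1int arrays alone. The count was 5 higher without the steady-state F4/80hi array. Without the Ly6Chi array Hk3 differed by -1.09, a value that rests on Ly6Clo cells alone. The range of the count over all arrays left out is given at the end, beside that of all genes called. Both CX3CR1int arrays came from colitis and 3 of 4 CX3CR1hi arrays from steady state, so this contrast also holds part of any difference between the conditions. The values within CX3CR1hi F4/80hi cells and within colitis are given below.

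CX3CR1int cells against splenic monocytes had 9 members higher and 0 lower by limma, 1 lower at an unadjusted p under 0.05, against 24.4% of all genes called, 10.2% higher and 14.2% lower. The 9 were Vegfa, Slc2a1, Slc2a3, Pfkp, Pfkfb3, Ldha, Pfkl, Hk2 and Hif1a, and the median difference was 0.28 against -0.08. Values were above without overlap for 13 members and below for 1, against 27.9% and 40.4%. Ankrd37, which passed the filter through the CX3CR1int arrays alone, is 1 of the 13. The count was 5 without the steady-state F4/80hi array. Without the Ly6Chi array Hk3 (-1.01) and Pfkfb4 (-1.33) were lower than in monocytes, values that rest on Ly6Clo cells alone. The end of the text gives the range of the count over all arrays left out, beside that of all genes called. The contrasts share arrays in pairs. All p-values measure the spread between arrays of a population that differ in condition, origin, Ly6C or sex label, since no group was repeated.

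**Figure D3:**
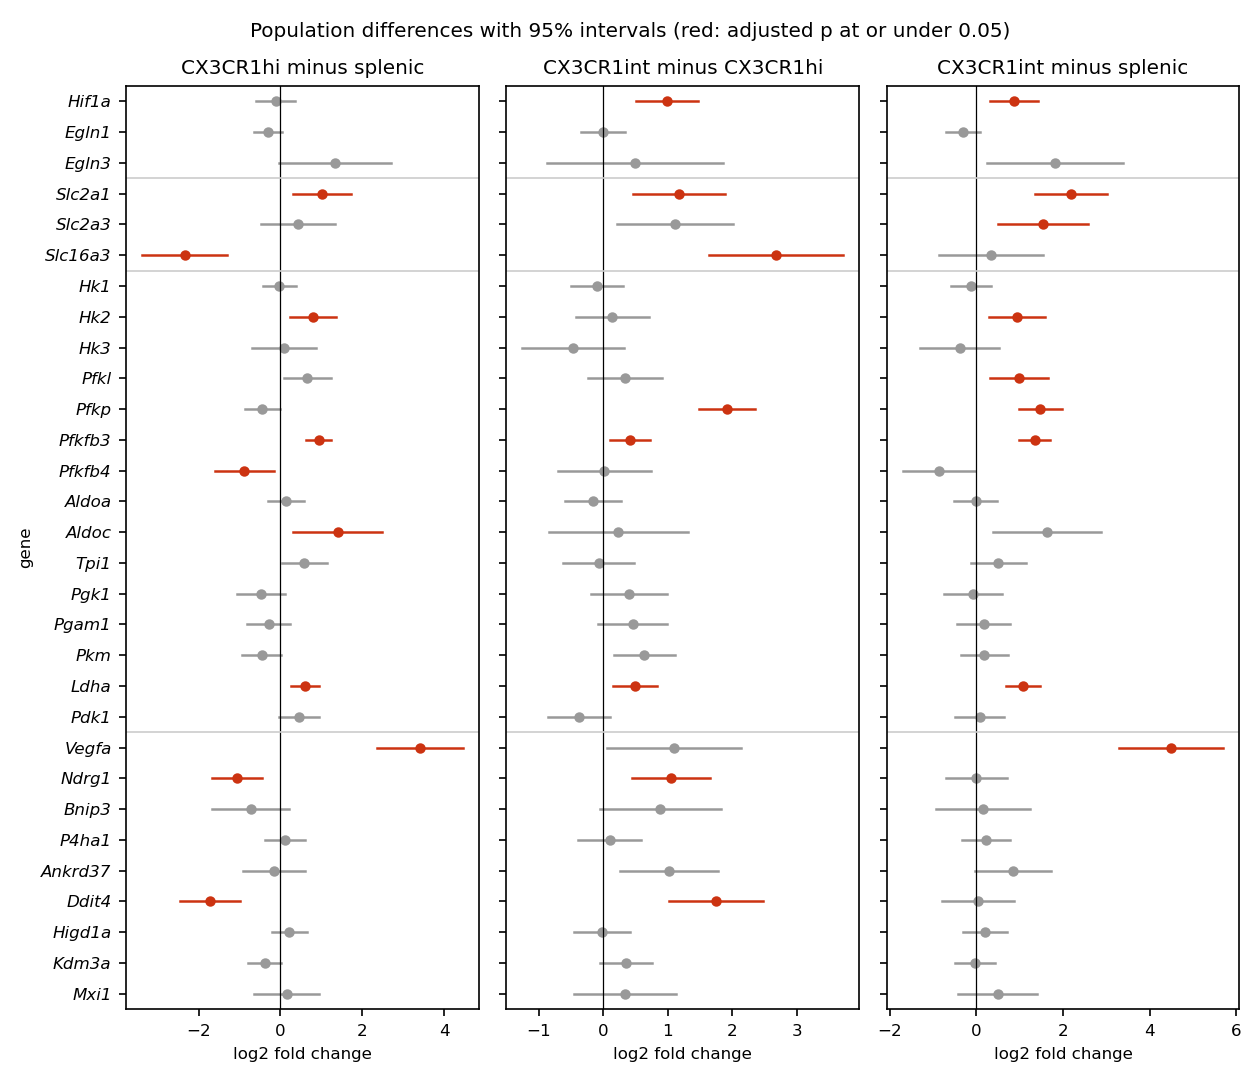
Fitted log2 differences of the 30 members in the 3 population contrasts (panels) with their 95% confidence intervals from the limma fit over 8 arrays, in red where the adjusted p is at or under 0.05. Calls lie on both sides of 0 for CX3CR1hi against splenic cells (6 and 4) and on the higher side alone in the other panels (8 and 9).

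Single arrays were set side by side with no test, a difference of at least 1 on the log2 scale counting as 2-fold. The steady-state colonic pair nearest to a repeat by the labels, F4/80hi minus resident, differed by 2-fold in 1 of 29 members, Ndrg1 (-1.01), against 3.64% of all genes, and Egln3 (-0.95) and Vegfa (-0.92) were close to it. The members' median was -0.31 against -0.11 for all genes, and with the arrays centred or quantile normalized 0 members were 2-fold apart. Reconstituted minus resident macrophages differed by 2-fold in 0 of 28 members against 1.76% of genes, the largest differences being Pfkfb4 (-0.80) and Slc16a3 (0.51), and the median was 0.02. Against the steady-state F4/80hi array in place of the resident one, 1 member was 2-fold apart.

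Colitis minus steady state gave 0 of 29 members in CX3CR1hi F4/80hi cells, against 1.47% of genes. The largest were Vegfa (-0.61), Egln3 (-0.57), Aldoc (-0.57) and Hk3 (0.55), all smaller than the Vegfa and Egln3 differences of the near-repeat pair. That pair also differed in sex label and in epithelial markers, with a median difference of -0.81 against -0.02 here. Cpa1 differed in both pairs. The near-repeat pair is therefore no clean measure of the spread between repeats. The median of all genes was 0.10 there and 0.00 once arrays were centred, and that of the members moved from 0.09 to 0.00. Set against resident macrophages instead, 2 members were 2-fold apart. In splenic monocytes colitis gave 0 of 26 members against 0.708% of genes, with Ddit4 (-0.44), Egln1 (-0.40) and Tpi1 (0.39) at the ends.

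The larger differences lay between cell populations of the inflamed mice. Ly6Chi cells of the colon minus Ly6Chi monocytes of the spleen had 12 of 30 members 2-fold higher and 0 lower, against 9.79% and 3.95% of genes. The largest measured differences were Vegfa (5.21), Egln3 (2.72), Slc2a1 (2.33) and Ankrd37 (1.53). Vegfa, Egln3 and Ankrd37 lay below the median of the colitis spleen array, so the size of their differences depends on a dim value there. These 3 entered the comparison through the Ly6Chi array alone. Colonic Ly6Chi minus CX3CR1hi F4/80hi cells, both from colitis, had 14 higher and 0 lower, against 5.33% and 9.07%, led by Slc16a3 (3.71), Vegfa (2.47), Ddit4 (2.43) and Egln3 (2.31). Of the 14, Egln3 and Ankrd37 lay below the median of the colitis F4/80hi array and also entered through the Ly6Chi array alone. Within CX3CR1int cells, Ly6Clo minus Ly6Chi had 2 higher, Aldoc (1.72) and Slc2a3 (1.68), and 8 lower, led by Slc16a3 (-1.88), Egln3 (-1.74) and Bnip3 (-1.67), against 6.46% and 5.51%. These 3 comparisons share the Ly6Chi array, and their values are not independent of each other. Cpa1 was 9.59 in that array and 4.85 in the Ly6Clo array, a difference whose part was not tested.

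Other genes of the pathway were taken from lists by function. The shares of all genes called, against which their counts are to be read, were 22.2% higher and 29.0% lower for CX3CR1hi cells against monocytes, 13.3% and 16.6% for CX3CR1int against CX3CR1hi cells, and 10.2% and 14.2% for CX3CR1int cells against monocytes. Of 14 tested HIF pathway components, CX3CR1hi cells had 1 higher and 5 lower than monocytes by limma: Epas1, the HIF-2 alpha gene, was higher (8.69 against 5.83, a difference of 2.86, SE 0.42, adjusted p = 0.00103), and Siah2 (-0.94) and Vhl (-0.84), a pair of genes for ubiquitin ligase parts, were among the lower. CX3CR1int cells had 4 higher and 0 lower than CX3CR1hi cells, led by Vhl (0.92), and 2 higher and 3 lower than monocytes. Epas1 differed by -1.25 between the colonic populations (SE 0.42, adjusted p = 0.0558), opposite in sign to Hif1a.

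A further list held 25 tested HIF-responsive genes. In CX3CR1hi cells 12 were higher and 5 lower than in monocytes, led by the lactate carrier gene Slc16a1 (4.10), the placental growth factor gene Pgf (3.50) and the transferrin receptor gene Tfrc (3.21), with Flt1, a VEGF receptor gene, lower (-2.49). CX3CR1int against CX3CR1hi cells had 1 higher and 5 lower, among them Selenbp1 (-2.01), Car12 (-1.61) and Slc16a1 (-1.14). Against monocytes 5 were higher, led by Bhlhe40 (3.26), and 4 lower. Of the 25, 3 peaked in the Ly6Chi array. CX3CR1hi cells had the highest mean of Slc16a1 (9.55, against 8.41 in CX3CR1int cells and 5.45 in the spleen) and the lowest of Slc16a3 (6.82, against 9.50 and 9.16). Slc16a1, Pgf and Tfrc lay below the array median in both splenic arrays, so their differences from monocytes depend on values of dim probe sets. Of the 16 epithelial markers, 16 were called higher in CX3CR1hi cells than in monocytes and 10 lower in CX3CR1int than in CX3CR1hi cells, and the part of epithelial RNA in these differences was not tested.

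Of 11 other glycolytic isoenzymes and carriers, 3 were higher and 3 lower in CX3CR1hi cells than in monocytes, and 3 higher and 5 lower in CX3CR1int than in CX3CR1hi cells. Slc2a6, a carrier of the glucose transporter family found in myeloid cells, was lower in CX3CR1hi cells than in monocytes (-2.74, SE 0.24, adjusted p = 8.93e-05) and higher in CX3CR1int cells than in CX3CR1hi cells (2.92, SE 0.24, adjusted p = 0.000276, limma). Gpd2, the mitochondrial glycerol phosphate dehydrogenase gene, was 1.58 and 1.39 higher in CX3CR1int cells than in CX3CR1hi cells and monocytes. Against monocytes CX3CR1int cells had 1 isoenzyme higher and 1 lower, Ldhb (-1.36).

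All 7 tested genes of the pentose phosphate pathway, which branches from glycolysis to make NADPH and ribose, were lower in CX3CR1hi cells than in monocytes by limma, led by Taldo1 (-1.63, SE 0.18, adjusted p = 0.000292), and 3 of 7 were lower in CX3CR1int cells, led by H6pd (-1.40). Between the colonic populations 2 were higher in CX3CR1int cells, Taldo1 (0.76) the most. Of 17 genes of pyruvate entry and the citrate cycle 5 were higher and 0 lower in CX3CR1hi cells than in monocytes, or 29.4% called against 51.2% of all genes, led by Idh3a (1.45) and Idh2 (1.28), 2 were lower in CX3CR1int than in CX3CR1hi cells, among them Idh2 (-0.88), and 2 were higher in CX3CR1int cells than in monocytes. No gene of either list peaked in the Ly6Chi array. Of 5 gluconeogenic genes 3 were higher and 1 lower in CX3CR1hi cells than in monocytes, led by Fbp2 (2.78) and Pck1 (2.71), both dim in the spleen, 2 were lower in CX3CR1int cells than in CX3CR1hi cells, and 1 was higher and 1 lower in CX3CR1int cells than in monocytes.

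**Figure D4:**
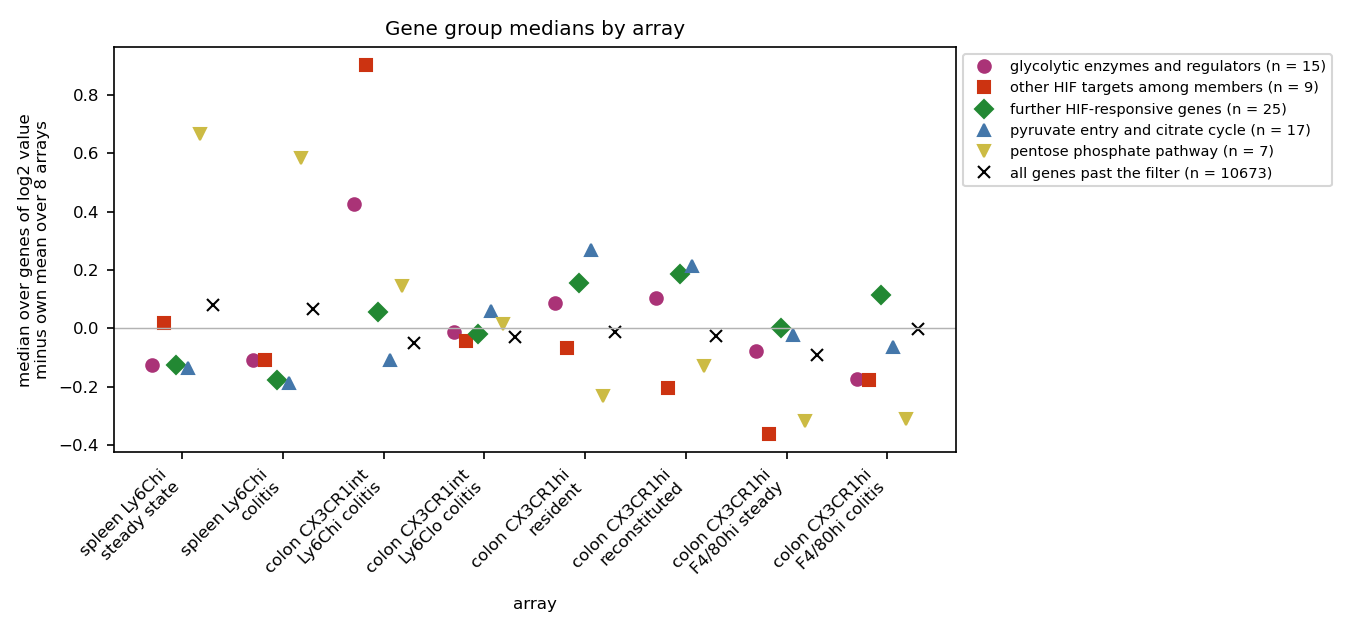
Median over the genes of each group of the log2 value minus the gene's own mean over the 8 arrays (y axis), for 6 gene groups (colours and symbols) in the 8 arrays (x axis). In the colitis Ly6Chi array the members among other HIF targets stand at 0.90, the glycolytic enzymes at 0.43 and the further HIF-responsive genes at 0.05, while the pentose phosphate genes are highest in both splenic arrays (0.67 and 0.58).

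In that array the 15 glycolytic genes thus had a median of 0.43 above their own mean, against -0.17 to 0.10 in the other 7 arrays, and the 9 other HIF targets one of 0.90, against -0.36 to 0.02. The 25 further HIF-responsive genes had a median of 0.05 there, below the 0.16 and 0.19 of the resident and reconstituted arrays, and the 14 HIF pathway components one of 0.11. The steady-state F4/80hi array held the lowest value of 10 of 30 members (33.3%, against 15.6% of all genes), among them 7 of the 9 other HIF targets, and the steady-state splenic array that of 8, among them 6 of 15 glycolytic genes.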

How the data were processed

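RNA was labelled and hybridised to Affymetrix arrays by the standard protocol, per the labels. The authors deposited log2 values made with RMA, a method of background correction, quantile normalization and probe summary, and Partek, per the submitters' processing notes; versions, settings and genome build are not given in the sources used here. Of 35399 probe sets, 21789 had a single gene symbol by the annotation of the platform, 1621 had more than 1 and 11989 had none. Entrez identifiers of 21698 matched RefSeq, and 0 symbols changed. Per gene the single-symbol probe set with the highest mean over the 8 arrays was used.

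Populations were compared by lmFit and eBayes of limma 3.58.1 under R 4.3.3, with all 8 arrays in 1 fit and 5 residual degrees of freedom, on the 10673 genes that reached the median of at least 2 arrays, with Benjamini-Hochberg adjustment over all of them at 0.05. The fit was tested on simulated data. Single arrays were compared as differences of log2 values without a test, when the brighter array was at or above its median. The number of arrays limits the precision. Alternatives were other filters, probe set means, 2 rescalings, sex as labelled as a block, the 2 populations alone, another prior, a 2-fold minimum, other comparison arrays and leaving out each array. As stated for Hif1a, some of these gave the same fit. Other steps used Python 3.11.15, numpy 2.4.6, pandas 2.3.3 and matplotlib 3.10.9.

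The members and the other gene lists were chosen with earlier results of these data known. Full values were given for called members with the largest fold changes (up to 8 per contrast), for up to 4 members per pair of arrays, and always for Hif1a, Vegfa, Slc2a1, Hk2, Hk3, Pfkfb3, Ldha and Pdk1. From each other list up to 4 called genes per contrast were named, and members with a pattern of their own, Cpa1, Xist and Eif2s3y were chosen after their values were seen. Other marker lists were low: 6 of 6 T and NK cell genes in all colonic arrays and 2 of 2 erythroid genes in all 8 arrays lay below the array median.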

Additional observations from a re-analysis of the deposited data

Results flagged for a closer look

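One value stood apart from its population. Slc16a3, the lactate exporter gene, was at 7.19 in reconstituted macrophages, while the other 3 CX3CR1hi arrays lay between 6.67 and 6.73. The gap to the nearest of them was 0.892 of the population's whole range, above Dixon's 95% critical value of 0.829 for 4 arrays. Of the 33 measured members this was the 1 that passed the limit in the CX3CR1hi population, and chance alone flags about 1 in 20. The other populations, with 2 arrays each, were too small for this check.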

How the results depend on the processing

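No paired analysis was possible because the labels carry no replicate numbers and each group has 1 array. No member that was called changed sign in any of its alternatives. With the filter at the 75th percentile 3505 genes were called between CX3CR1hi and splenic cells (5466 as reported). Using the 2 populations alone gave 10 members higher and 8 lower in that contrast (6 and 4 as reported), and 4 members higher (9) among 947 genes called (2605) for CX3CR1int against splenic cells. Sex as a block gave 1992 genes called between CX3CR1int and CX3CR1hi cells (3186). A 2-fold minimum left 3 members higher among 2589 genes, 5 members higher (8) among 1480 genes, and 1338 genes in the 3 contrasts in turn. For single arrays, F4/80hi minus resident changed from 1 member to 2 without a filter and to 0 with either rescaling. Reconstituted cells against steady-state F4/80hi gave 1 instead of 0, colitis F4/80hi cells against resident 2 instead of 0, and Ly6Clo minus Ly6Chi 6 instead of 10 at the 75th percentile. Leaving out each array gave 2 to 10 members higher, 2 to 8 lower and 3246 to 6400 genes called for CX3CR1hi against splenic cells. For CX3CR1int against CX3CR1hi it gave 5 to 12 higher, 0 to 1 lower and 2402 to 3664 genes, and against splenic cells 5 to 14 higher, 0 to 2 lower and 735 to 3763 genes. The cause of these changes was not tested, except that stricter filters and fewer arrays leave fewer genes or samples. Over single members, leaving out 1 array kept 581 of 720 results in direction and on their side of the threshold, with 61 calls lost, 37 gained and 41 differences of another sign that passed in neither setting. Of the 30 members tested, 25 were at or above the array median in all 8 arrays, and Vegfa was in 7, Aldoc in 6, Egln3 in 5, Slc2a3 in 4 and Ankrd37 in 2. The 2 arrays in each of 2 populations limit the precision.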
